A study of Schizosaccharomyces pombe with 8 samples.

Results

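Fission yeast (Schizosaccharomyces pombe) genes of zinc homeostasis, together with the alcohol dehydrogenase genes that respond to zinc, are described here in 2 strains. The set holds 7 of the 7022 gene rows of the deposited table, picked by identifier: the alcohol dehydrogenase genes adh4 and adh1, the zinc transporter genes zrt1 and zhf1, the metallothionein gene zym1, the regulator gene loz1, and SPNCRNA.1622, a non-coding RNA whose row overlaps zrt1. Differences between the strains in these same libraries led to the choice, so the strain difference of these 7 rows is given as a description and without a test.

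The cwf10-ΔNTE strain (OHI408) lacks residues 2 to 127 of the spliceosomal GTPase Cwf10 in an h- background with ade6-M21X, leu1-32 and ura4-D18. The wild-type strain (OHI246) has cwf10+ in an h- background with ade6-M210, leu1-32 and ura4-D18. Each strain gave 2 libraries of poly-A RNA from cultures grown at 25 °C in yeast extract medium, whose zinc content the labels do not give. Both strains share the leu1 and ura4 markers, while the ade6 allele is written differently for the mutant. The labels say that replicate cultures were not grown apart but were handled separately afterwards, so the spread behind each p-value is that between libraries and may be technical.

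Gene rows held 36186264 and 42593150 reads in the cwf10-ΔNTE libraries and 40857033 and 42802817 in the wild-type libraries. Exon-exon reads over intron 1 of cwf10 numbered 0 and 0 in cwf10-ΔNTE and 98 and 85 in wild type, and over intron 3 they numbered 84 and 99 in cwf10-ΔNTE and 82 and 98 in wild type. The counting did not use strand: each of 1655 intergenic intervals that the table lists on both strands has the same reads on both in all 4 libraries. The libraries represent whole cultures, so fewer cells using a gene and less RNA per cell cannot be told apart.

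Zinc is needed by many enzymes but is harmful in excess, and cells hold its level steady. In fission yeast Zrt1 carries zinc in across the plasma membrane, Zhf1 moves it into the endoplasmic reticulum, and the metallothionein Zym1 binds it. Loz1 is a zinc-finger repressor that is active when zinc is plentiful, and zrt1 and adh4 are among its known targets. Adh1 is the abundant zinc-dependent alcohol dehydrogenase of fermentation, and an antisense RNA of adh1 is known to appear when zinc is scarce. Those facts come from earlier work and are background to the values that follow.

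The known Loz1 response element contains the letters CGNNGATC, which were searched on both strands in the 1000 bases before the 5′ end of each row. The sequences are shown because both genes with the highest log2 fold changes of the set, adh4 and zrt1, have such letters upstream. At least 1 match was present for 3 of the 7 rows (adh4, zrt1 and loz1), and for 12.6% of the 6984 gene rows on the 3 nuclear chromosomes. Sequences are from the RefSeq reference genome, assembly ASM294v3, read 5′ to 3′ on the strand given, with the matching letters in capitals. The adh4 window held 2 matches on the minus strand, on which adh4 lies, each written within 26 bases, at chrI:158588-158613 and chrI:158636-158661.
adh4 nearer match: cagcatcgaCGACGATCacgtcaaat
adh4 farther match: tggtaaatcCGTGGATCttctagaag
The zrt1 window held 2 matches, written as chrII:3606974-3606999 on the plus strand and chrII:3606691-3606716 on the minus strand. Both lie within the row of SPNCRNA.1622.
zrt1 plus-strand match: attttcaagCGTCGATCcttaaacct
zrt1 minus-strand match: gcagattgaCGTCGATCtgtcacaac
A match is a description of the letters and not evidence of binding. The loz1 window held 4 matches, 2 of which overlap each other, between chromosome I positions 4195274 and 4195607. The windows of adh1, zym1, zhf1 and SPNCRNA.1622 held 0. All windows were set from the deposited rows, which for some genes differ from RefSeq. RefSeq starts adh1 at 1591292, inside its row, and the adh1 window ended at 1589426. The bases just before the RefSeq start of adh1 were therefore not searched. For adh4 the RefSeq start, 157932, also lies inside the row, and for zhf1 it lies 352 bases before the row.

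Among the 7 rows, 4 were higher in both cwf10-ΔNTE libraries than in both wild-type libraries and 3 were lower in both. Across all 6536 gene rows that passed the filter on low counts, 45.3% were higher in this way and 43.4% were lower, and since these libraries chose the 7 rows nothing is read from their count or from the sizes that follow. All 7 passed the filter. Testing every gene row with edgeR's quasi-likelihood test and a Benjamini-Hochberg adjusted p under 0.05 called 78.1% of them, 39.6% higher and 38.5% lower in cwf10-ΔNTE. A log2 fold change above 2 was reached by 0.627% of tested rows, and by adh4, zrt1 and SPNCRNA.1622 among the 7. A log2 fold change under -0.7 was reached by 2.65% of tested rows, and by adh1 and zym1 among the 7. The other members, loz1 at 0.33 and zhf1 at -0.27, lay within these limits.

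**Figure D1:**
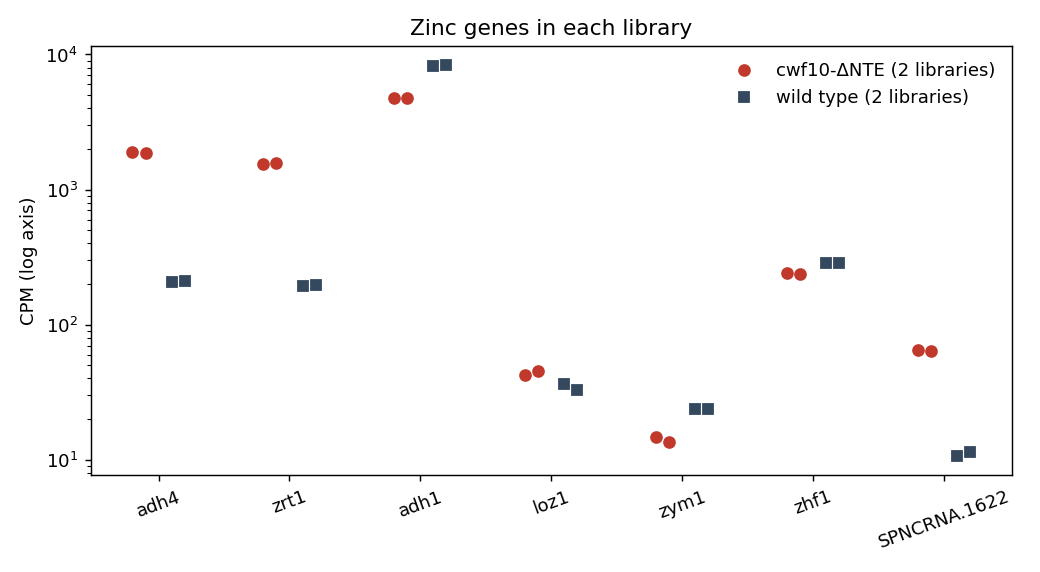
Counts per 1000000 library reads (CPM, log axis) of the 7 rows, with red circles for the 2 cwf10-ΔNTE libraries and dark squares for the 2 wild-type libraries. The strains do not overlap for any row, and adh4 and zrt1 stand at 1546 to 1889 CPM in cwf10-ΔNTE against 194 to 209 CPM in wild type.

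**Figure D2:**
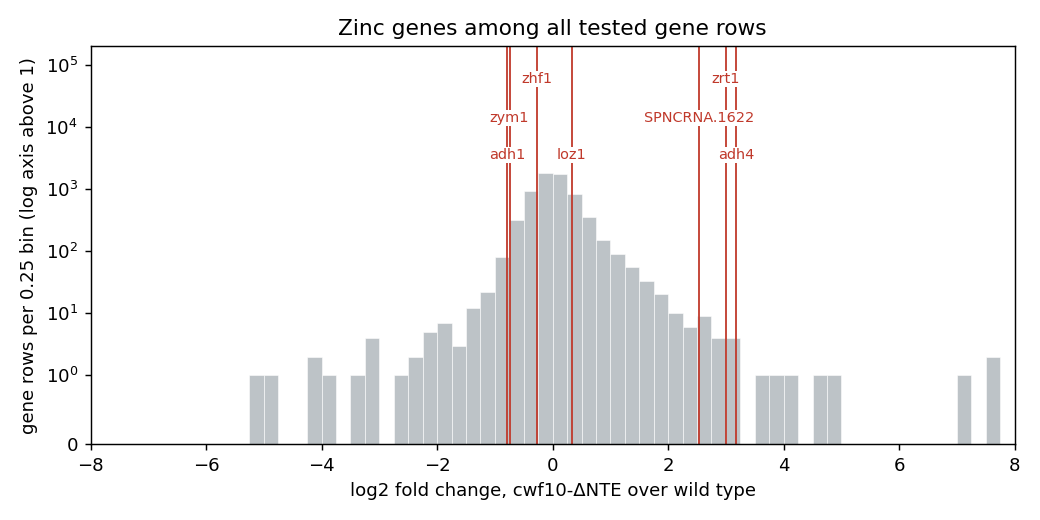
Number of gene rows (vertical axis, log above 1) in bins of log2 fold change, cwf10-ΔNTE over wild type (horizontal axis), for the 6536 tested rows, with red lines at the 7 zinc rows. The lines for adh4 at 3.18 and SPNCRNA.1622 at 2.53 lie in the sparse right tail, those for adh1 at -0.78 and zym1 at -0.75 on the left shoulder.

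The zinc importer gene zrt1 (SPBC16D10.06, chromosome II, 3607199 to 3609330, plus strand) had 1546 and 1586 CPM in cwf10-ΔNTE, against 194 and 197 CPM in wild type. CPM are counts per 1000000 library reads, after TMM scaling. Both mutant libraries lay far above both wild-type libraries, by 8.02-fold between the means (1566 ± 28.8 and 195 ± 2.04 CPM, SD, n = 2 each), and the row ranked 12 of 6536 from the top by log2 fold change. The zrt1 row shares 73 bases with SPNCRNA.1622 at its 5′ end and 114 bases with sir2, the gene of a histone deacetylase, at its 3′ end. The stretch of 1945 bases between these overlaps belongs to zrt1 alone and held 55633 and 67219 reads in cwf10-ΔNTE, against 7461 and 7874 in wild type. It carried between 96.3% and 96.8% of the row's reads in the 4 libraries, so the level of the row hardly rests on the shared ends. In that stretch mean CPM were 8.04-fold apart, against 8.02-fold for the whole row.

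SPNCRNA.1622 (chromosome II, 3605352 to 3607271, minus strand) begins inside the 5′ end of zrt1 and runs away from it on the other strand. It had 64.6 and 63.6 CPM in cwf10-ΔNTE and 10.7 and 11.4 CPM in wild type, with a log2 fold change of 2.53. The row also shares 1166 bases with SPNCRNA.425, a non-coding RNA on the zrt1 strand. Between the deposited rows of SPNCRNA.425 and zrt1, 681 bases belong to SPNCRNA.1622 alone. That stretch held 403 and 526 reads in cwf10-ΔNTE and 87 and 92 in wild type, a log2 ratio of 2.38. RefSeq, however, starts zrt1 at 3607177, inside this stretch (3606518 to 3607198). Reads of zrt1 may be among those counted, so whether SPNCRNA.1622 itself was higher cannot be told from them. On the strand of zrt1 the same stretch is the zrt1 upstream region, and reads from either strand were counted together. It carried 16.8% and 18.9% of the row's reads in cwf10-ΔNTE and 20.4% and 19.45% in wild type. Most reads of the SPNCRNA.1622 row thus lay in stretches shared with SPNCRNA.425 or zrt1 and cannot be assigned to 1 of them. The SPNCRNA.425 row had 20.4 and 18.9 CPM in cwf10-ΔNTE against 4.03 and 4.93 in wild type, a log2 ratio of 2.13. It shares most of its length, and so its reads, with SPNCRNA.1622. It is not a separate observation and is given without a test.

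Beyond these rows the differences at the zrt1 locus were smaller. The sir2 row had a log2 fold change of 0.59. It shares 114 bases with zrt1 and may hold reads of zrt1, so the row is described without a test. In the 2934 bases between zrt1 and hsp104, which cover most of sir2 but none of zrt1, mean CPM were 55.9 ± 0.497 in cwf10-ΔNTE and 42.2 ± 0.951 in wild type (SD, n = 2 each), a log2 ratio of 0.41. The next row, hsp104, a heat-shock chaperone gene, had overlapping libraries, at 275 and 252 CPM in cwf10-ΔNTE against 246 and 254 CPM in wild type. On the other side mok13, a cell wall glucan synthase gene 452 bases from SPNCRNA.1622, rose by log2 0.49 ± 0.026 (SE; edgeR quasi-likelihood, BH-adjusted p = 1.07e-15). The hsp104 row passed the test at log2 0.08 (edgeR quasi-likelihood, BH-adjusted p = 0.0158) but not without cwf10-ΔNTE replicate 1 (0.01, adjusted p = 0.632) or without wild-type replicate 1 (0.05, adjusted p = 0.167).

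**Figure D3:**
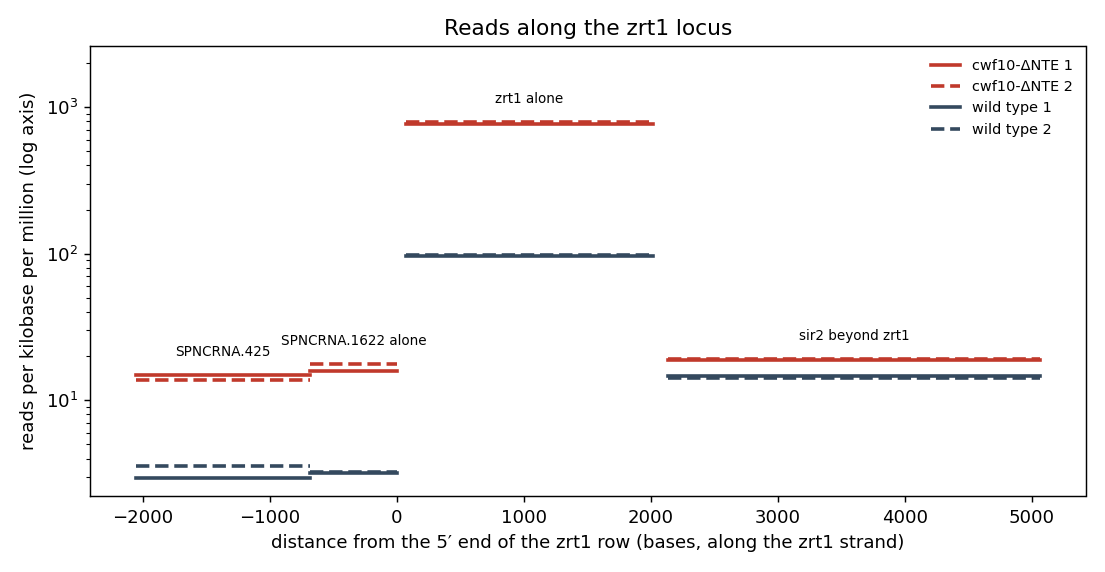
CPM per kilobase (log axis) over stretches of the zrt1 locus against the distance in bases from the 5′ end of the zrt1 row, with red lines for cwf10-ΔNTE and dark lines for wild type (solid for replicate 1, dashed for replicate 2). By the deposited rows, the stretches that hold SPNCRNA.425, SPNCRNA.1622 alone and zrt1 alone are higher in cwf10-ΔNTE with log2 ratios above 2. SPNCRNA.425 shares most of its length with SPNCRNA.1622. The sir2 stretch beyond zrt1 has a log2 ratio of 0.41.

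Lower levels in cwf10-ΔNTE than in wild type were found for zym1 and zhf1, which bind zinc or carry it within the cell. The metallothionein gene zym1 (SPAC22H10.13, chromosome I, 2381690 to 2382200) had 14.7 and 13.6 CPM in cwf10-ΔNTE, against 23.8 and 23.6 CPM in wild type, a log2 fold change of -0.75. It rests on 548 and 596 reads in cwf10-ΔNTE and 952 and 977 in wild type, and overlaps no other gene row. The gene zhf1 (SPAC23C11.14, chromosome I, 2158659 to 2160086) had 240.0 and 236 CPM in cwf10-ΔNTE, against 288 and 287 CPM in wild type, a log2 fold change of -0.27. It too overlaps no gene row, and its mutant libraries lay below its wild-type libraries by a margin larger than the spread within either strain. The RefSeq transcript of zhf1 starts 352 bases before the deposited row, and the 463 bases just before the row, listed as intergenic, held 21.4 and 19.8 CPM in cwf10-ΔNTE and 25.1 and 26.4 CPM in wild type, a log2 ratio of -0.32.

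The row that lies 88 bases from zym1 on the other strand, SPAC22H10.06c, went in the direction opposite to zym1. It had 108 and 134 reads in cwf10-ΔNTE, against 11 and 21 reads in wild type, and rose by log2 2.92 ± 0.228 (SE; edgeR quasi-likelihood, BH-adjusted p = 5.37e-12). RefSeq names its product an uncharacterized protein. On the other side scd2, the gene of a Cdc42 scaffold protein 269 bases from zym1, had overlapping libraries, with means of 54.96 ± 0.129 CPM in cwf10-ΔNTE and 54.8 ± 0.812 CPM in wild type (SD, n = 2 each). Beside zhf1, pst2, the gene of a histone deacetylase complex subunit, rose by log2 0.44 ± 0.023 (SE; edgeR quasi-likelihood, BH-adjusted p = 8.46e-16).

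The repressor gene loz1 (SPAC25B8.19c, chromosome I, 4192070 to 4195228, minus strand) had 42.3 and 45.1 CPM in cwf10-ΔNTE and 36.7 and 32.9 CPM in wild type. The mutant libraries were both higher, with a log2 fold change of 0.33, but the libraries of each strain were themselves further apart than for adh4 or zrt1 relative to their level. The row shares 88 bases with SPAC25B8.18, and an interval that holds the rest of loz1 gave 41.8 and 44.4 CPM in cwf10-ΔNTE and 36.3 and 32.5 CPM in wild type. An RNA level says nothing of whether the Loz1 protein is active. The overlapping SPAC25B8.18 row had a log2 fold change of 0.33. It may hold reads of loz1 and is described without a test. On its far side ypf1 fell by 0.26 on the log2 scale (edgeR quasi-likelihood, BH-adjusted p = 1.51e-07).

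The alcohol dehydrogenase gene adh4 (SPAC5H10.06c, chromosome I, 156430 to 158279, minus strand) had the highest log2 fold change of the set. It had 1889 and 1879 CPM in cwf10-ΔNTE, against 208 and 209 CPM in wild type. The strains were separated by 9.05-fold between means (1884 ± 7.0 and 208 ± 0.735 CPM, SD, n = 2 each), with a rank of 10 of 6536 by log2 fold change. The row overlaps no other gene row, so unlike zrt1 and adh1 its reads have no second annotated source. The 846 bases that follow the adh4 row on its strand, before the next gene, held 1448 and 1759 reads in cwf10-ΔNTE and 210 and 217 reads in wild type. Those reads amounted to 2.06% and 2.14% of the adh4 reads in cwf10-ΔNTE and 2.53% and 2.51% in wild type, a 7.54-fold difference in mean CPM. SPAC5H10.05c, whose row ends at the far side of this stretch, rose by log2 1.02 ± 0.034 (SE; edgeR quasi-likelihood, BH-adjusted p = 4.52e-20). SPAC5H10.07, 497 bases before the adh4 start, rose by log2 0.95 ± 0.082 (SE; edgeR quasi-likelihood, BH-adjusted p = 4.24e-11).

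The fermentation gene adh1 (SPCC13B11.01, chromosome III, 1589427 to 1592889, plus strand) was the most abundant of the 7 in both strains. It had 4787 and 4785 CPM in cwf10-ΔNTE, against 8191 and 8295 CPM in wild type. The mutant level was 0.581 times the wild-type level (4786 ± 2.04 and 8243 ± 73.6 CPM, SD, n = 2 each), a log2 fold change of -0.78, and the row ranked 126 of 6536 from the bottom. As a share of all gene reads adh1 took 0.492% in both cwf10-ΔNTE libraries, against 0.801% and 0.803% in wild type. There were 2.53 and 2.55 adh1 reads for each adh4 read in cwf10-ΔNTE, against 39.4 and 39.7 in wild type. Both dehydrogenases together took 0.687% and 0.685% of gene reads in cwf10-ΔNTE and 0.821% and 0.823% in wild type, so the reads that adh4 had in addition were fewer than those adh1 lacked.

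The annotation of adh1 affects what its row measures. The deposited row of 3463 bases shares 2894 bases with SPCC13B11.02c on the other strand and 332 bases with SPNCRNA.1208. The RefSeq annotation gives adh1 a shorter transcript of 1598 bases, 1591292 to 1592889, and places SPCC13B11.02c at 1593402 to 1593818, beyond the adh1 end. In the only 237 bases that the deposited rows leave to adh1 alone, the reads numbered 16 and 32 in cwf10-ΔNTE and 4 and 7 in wild type, out of 178157 and 209439 on the whole row in cwf10-ΔNTE and 327252 and 343549 in wild type. The row SPCC13B11.02c had 5044 and 5046 CPM in cwf10-ΔNTE and 8197 and 8300.0 CPM in wild type. These are nearly the values of adh1, with which it shares most of its reads. The row as a whole is not a separate observation. Its bases beyond the adh1 end, where RefSeq places the gene, lie in the interval described next, which was higher in cwf10-ΔNTE. SPNCRNA.1208 did not pass the test (log2 0.04 ± 0.031, SE; edgeR quasi-likelihood, BH-adjusted p = 0.229), nor did the tri-snRNP gene snp27 (log2 0.01; BH-adjusted p = 0.847). Most of the snp27 row (1587682 to 1588649) lies inside the SPNCRNA.1208 row (1587817 to 1589758). For snp27 the reads numbered 2669 and 3173 in cwf10-ΔNTE and 2913 and 2928 in wild type. For SPNCRNA.1208 they numbered 2594 and 3052 in cwf10-ΔNTE and 2745 and 2769 in wild type. With strand ignored, many reads may be counted in both rows, which are therefore not taken as 2 independent results.

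Just after the 3′ end of adh1 the strains differed in the direction opposite to adh1. The interval of 1708 bases from chromosome III 1592890 to 1594597 held 9641 and 11586 reads in cwf10-ΔNTE, against 262 and 222 reads in wild type. Mean CPM were 262 ± 3.96 in cwf10-ΔNTE and 5.96 ± 0.847 in wild type (SD, n = 2 each), 43.9-fold apart. Among the 2538 distinct intergenic intervals that averaged 5 CPM or more, it had the highest log2 ratio, 5.46, and 1.85% of these intervals were more than 2-fold higher in cwf10-ΔNTE. It was singled out after its values were seen and was not tested. The reads in it equalled 5.41% and 5.53% of the adh1 reads in cwf10-ΔNTE, against 0.0801% and 0.0646% in wild type. Whether they come from the adh1 strand or from the opposite one cannot be told from these counts, and neither can the part that any antisense reads take in the adh1 row. RefSeq places the whole of SPCC13B11.02c (1593402 to 1593818) inside this interval, so reads of that gene may be among those counted.

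The reads of that interval lay mostly next to adh1. Its outer end is covered by a further interval, 1593819 to 1594871, with 142 and 172 reads in cwf10-ΔNTE and 9 and 5 in wild type. Most of the mutant reads therefore fell in the first 929 bases, between adh1 and the outer end of SPCC13B11.02c. CGNNGATC occurred 3 times in the 1708 bases. At least 1 match was present in 24.5% of windows of that length tiled over the 3 chromosomes. The share with 3 or more was not counted, and the interval was picked by its values, so nothing is read from the number of matches. All 3 matches lie in those first 929 bases, and both minus-strand matches lie within SPCC13B11.02c as RefSeq places it.
plus strand, chrIII:1593288-1593313: tattttgtaCGACGATCcctaatcca
minus strand, chrIII:1593526-1593551: cggtttccaCGGCGATCcatgtcgga
minus strand, chrIII:1593715-1593740: aagattttcCGTCGATCattcgacat
Beyond the interval, SPNCRNA.1209 rose by log2 2.54 ± 0.117 (SE; edgeR quasi-likelihood, BH-adjusted p = 5.37e-17), at 381 and 431 reads in cwf10-ΔNTE against 66 and 74 in wild type. The formaldehyde dehydrogenase gene fmd3, which follows on the same side, rose by log2 0.87 ± 0.043 (SE; edgeR quasi-likelihood, BH-adjusted p = 2.83e-16).

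**Figure D4:**
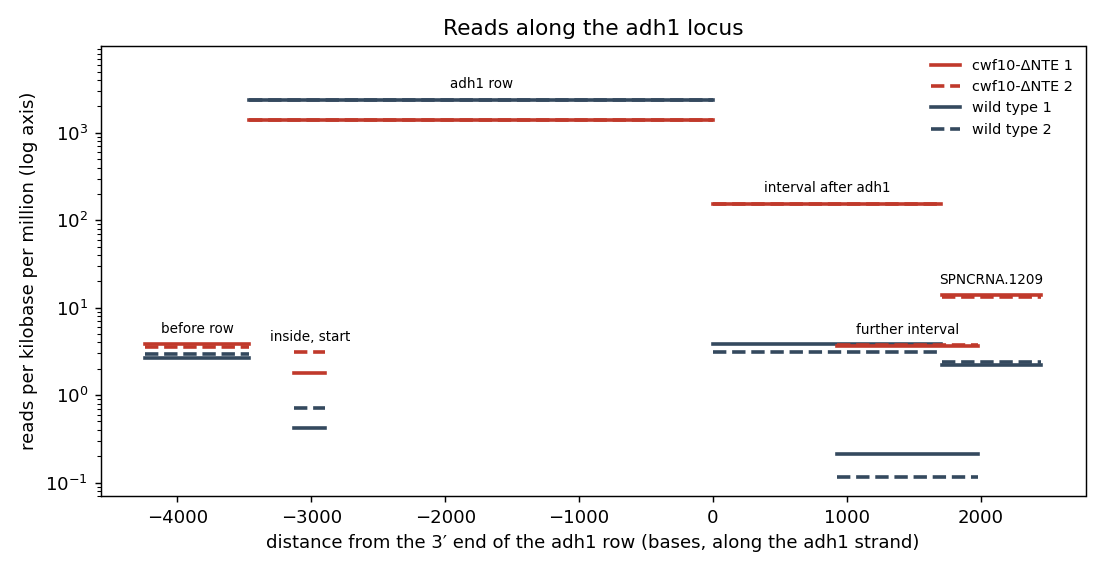
CPM per kilobase (log axis) over stretches of the adh1 locus against the distance in bases from the 3′ end of the adh1 row, with red lines for cwf10-ΔNTE and dark lines for wild type (solid for replicate 1, dashed for replicate 2). The adh1 row is lower in cwf10-ΔNTE with a log2 fold change of -0.78, while the interval that follows it is higher with a log2 ratio of 5.46.

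Per length, the order of the 7 rows differed between the strains. In CPM per kilobase of row, cwf10-ΔNTE libraries had adh1 (1382 and 1382) above adh4 (1021 and 1016), zrt1 (725 and 744), zhf1 (168 and 165), SPNCRNA.1622 (33.6 and 33.1), zym1 (28.8 and 26.6) and loz1 (13.4 and 14.3). In wild-type libraries adh1 (2365 and 2395) was followed by zhf1 (202 and 201), adh4 (112 and 113), zrt1 (90.9 and 92.3), zym1 (46.6 and 46.2), loz1 (11.6 and 10.4) and SPNCRNA.1622 (5.57 and 5.95). Neighbours in either order did not overlap between libraries of the strain. As a whole row SPNCRNA.1622 was lowest in wild type and above zym1 and loz1 in cwf10-ΔNTE, but most of its reads lay in shared stretches. Its 681 bases outside the deposited overlaps had 15.9 and 17.65 CPM per kilobase in cwf10-ΔNTE, above loz1 but below zym1. In wild type they had 3.20 and 3.26. The level of adh1 depends on the length used, since its RefSeq transcript is shorter than the deposited row.

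The profile over the 4 libraries was compared with that of every other row of at least 5 CPM, by the Euclidean distance between log2 CPM values centred on each row's mean. With 4 libraries this measure reflects mainly the size of the strain difference. For adh4 the nearest row was zrt1 (distance 0.178), followed by SPBC1271.08c (0.258) and the subtelomeric helicase gene tlh2 (0.603). For zrt1 the nearest were SPBC1271.08c (0.0843), adh4 and SPNCRNA.571 (0.466). SPBC1271.08c, of uncharacterized product, had 158 and 162 CPM in cwf10-ΔNTE and 21.1 and 21.0 CPM in wild type, and overlaps 3 gene rows. Reads of tlh2 cannot be assigned with certainty, because other subtelomeres hold near-identical genes. For adh1 the nearest were ani1 (0.016), which encodes a peptidyl-prolyl isomerase, has1 (0.0262), which encodes an RNA helicase, and mrt4 (0.0272), a ribosome assembly gene, all with log2 fold changes between -0.79 and -0.76. Within a distance of 0.1 lay 58 rows for adh1, 1 for zrt1 and 0 for adh4.

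The other genes that carry or bind zinc varied less than zrt1. Of the 3 remaining transporter genes in the zinc list, fet4, for an iron and zinc transporter, rose, and cis4 and zrg17, for Golgi zinc importers, did not pass. The fet4 reads numbered 549 and 632 in cwf10-ΔNTE against 551 and 458 in wild type (log2 0.23 ± 0.079 after scaling, SE; edgeR quasi-likelihood, BH-adjusted p = 0.00927). That call ended with DESeq2 (adjusted p = 0.0644) and without cwf10-ΔNTE replicate 1 (0.0786), cwf10-ΔNTE replicate 2 (0.0564) or wild-type replicate 2, where the log2 change was 0.08 (edgeR quasi-likelihood, BH-adjusted p = 0.377). The gene cis4 had 82.6 and 86.1 CPM in cwf10-ΔNTE and 84.0 and 84.7 CPM in wild type, and zrg17 had 43.8 and 44.5 CPM in cwf10-ΔNTE and 44.5 and 43.3 CPM in wild type. With library totals as the only scaling, which moved the median log2 change of all rows to 0.09, cis4 and zrg17 passed as higher at log2 0.08 and 0.09.

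All 3 genes of the Ecl1 family, which encode small zinc-binding proteins linked to chronological lifespan, rose. The gene ecl1 had 105 and 103 CPM in cwf10-ΔNTE, against 17.2 and 18.8 CPM in wild type, up by log2 2.53 ± 0.0399 (SE; edgeR quasi-likelihood, BH-adjusted p = 2.09e-27). The gene ecl2 rose by log2 0.78, at 147 and 155 CPM in cwf10-ΔNTE and 86.3 and 89.7 CPM in wild type. The gene ecl3 had 7.34 and 5.92 CPM in cwf10-ΔNTE and 4.06 and 4.01 CPM in wild type and rose by log2 0.71. The rows of ecl1 and ecl2 each overlap 1 other gene row. The list was chosen with the ecl1 result known, and 39.6% of all tested rows rose.

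Among other genes of alcohol and aldehyde metabolism, 7 of 10 tested rose, 1 fell and 2 did not pass. Over all tested rows 39.6% rose and 38.5% fell, and the list was chosen with results known. The list's median log2 fold change was 0.41, against 0.01 over all tested rows. The aldehyde dehydrogenase gene atd2 had 62.3 and 63.4 CPM in cwf10-ΔNTE and 24.0 and 23.8 CPM in wild type, and rose by log2 1.40 ± 0.0399 (SE; edgeR quasi-likelihood, BH-adjusted p = 1.58e-21). The alcohol dehydrogenase gene adh8 had 48.2 and 48.0 CPM in cwf10-ΔNTE and 21.8 and 23.1 CPM in wild type, and its mean CPM was 2.14-fold higher, also a called rise. Pyruvate decarboxylase supplies the acetaldehyde that alcohol dehydrogenase reduces. Its main gene pdc101 rose by log2 0.11 only, at 6381 and 6501 CPM in cwf10-ΔNTE and 5873 and 6074 CPM in wild type (edgeR quasi-likelihood, BH-adjusted p = 0.00458), and did not pass without cwf10-ΔNTE replicate 2 (adjusted p = 0.0742). Rises of log2 0.53, 0.53 and 0.29 were called for pdc202, the aldehyde dehydrogenase gene atd3 and the formaldehyde dehydrogenase gene fmd2, whereas fmd1 fell by 0.28 on the log2 scale. The genes pdc201 and atd1 did not pass, with log2 changes of 0.08 and 0.02, and pdc102, with 0 and 2 reads in cwf10-ΔNTE and 1 and 3 in wild type, was too low to test.

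Of 5 other genes of zinc-dependent enzymes 2 rose, 1 fell and 2 did not pass (median log2 fold change 0.00), against 39.6% higher and 38.5% lower among all tested rows. Class II aldolase (fba1) rose by log2 0.44, at 522285 and 627733 reads in cwf10-ΔNTE against 413690 and 438079 reads in wild type (edgeR quasi-likelihood, BH-adjusted p = 1.73e-11). The carbonic anhydrase gene nce103 fell by 0.46 on the log2 scale, at 318 and 311 CPM in cwf10-ΔNTE and 437 and 431 CPM in wild type. The methionine synthase gene met26 rose by log2 0.10 (edgeR quasi-likelihood, BH-adjusted p = 0.0115), a call that ended without cwf10-ΔNTE replicate 1 or 2 (adjusted p = 0.0713 and 0.0782). The superoxide dismutase gene sod1 and the alkaline phosphatase gene pho8 had log2 changes of -0.03 and 0.00.

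In the glutathione and heavy-metal list 1 of 6 genes rose, 3 fell and 2 did not pass (median log2 fold change -0.10), where 39.6% of all tested rows rose and 38.5% fell. The vacuolar phytochelatin transporter gene hmt1 rose by log2 0.22. Falls of 0.22, 0.18 and 0.14 on the log2 scale were called for gcs1, the first enzyme of glutathione synthesis, hmt2, a sulfide oxidoreductase gene, and zip1, a transcription factor gene of the cadmium response. The glutathione synthetase gene gsa1 and the phytochelatin synthetase gene pcs2 had log2 changes of 0.04 and -0.06.

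**Figure D5:**
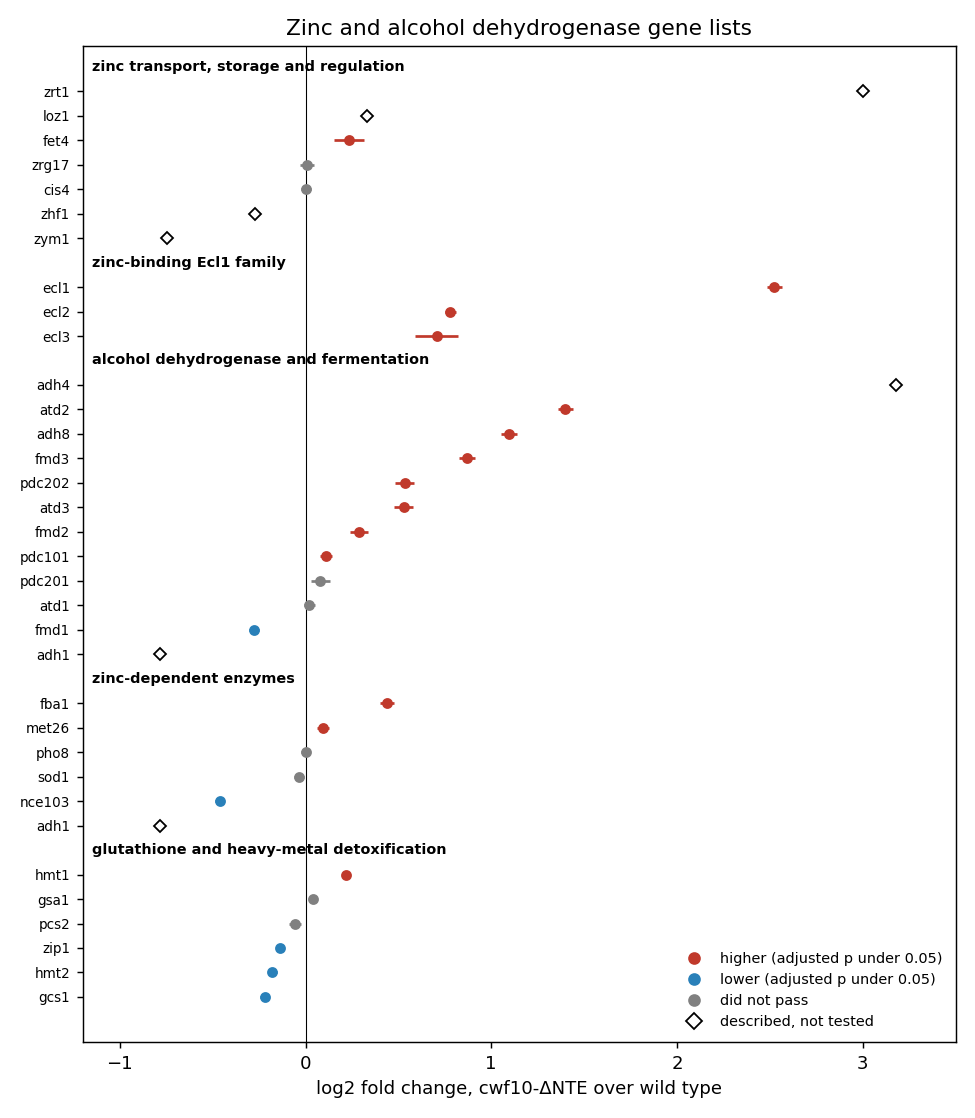
Log2 fold change, cwf10-ΔNTE over wild type (horizontal axis), of each tested gene in 5 lists (vertical axis), with standard errors, coloured by the edgeR call; open diamonds are the described zinc rows, drawn without a test. The 3 Ecl1-family genes and 7 of the 10 tested alcohol and aldehyde genes lie to the right as called higher, while cis4 and zrg17 sit at 0.00 and 0.01.

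Cwf10 works in splicing, but none of the 7 zinc rows has an intron in the table, so no intron retention could be measured in them. Retention means intron reads relative to the reads of the host gene. Of 5038 introns tested in all genes, 47.1% had higher and 0.298% lower retention in cwf10-ΔNTE by edgeR with an adjusted p under 0.05. The total called was 2387, against 1126 with DESeq2, 1505 without cwf10-ΔNTE replicate 1 and 1380 without cwf10-ΔNTE replicate 2. The list genes other than the 7 have 9 tested introns, of which 4 rose and 0 fell. The pdc101 intron among them, without a call, is listed with a length of 2 bases, so its reads may not measure retention. The smallest adjusted p belonged to the intron of hmt1, with 17 and 19 reads in cwf10-ΔNTE against 3 and 3 in wild type (log2 2.33; adjusted p = 0.000539 by edgeR), followed by the intron of pho8, with 83 and 92 reads in cwf10-ΔNTE against 56 and 45 in wild type (log2 0.80; BH-adjusted p = 0.000848). The calls for single introns of zip1 and fmd1 were lost with DESeq2 (adjusted p = 0.183 and 0.17), without either cwf10-ΔNTE library, and without wild-type replicate 2 (zip1, 0.149) or wild-type replicate 1 (fmd1, 0.213). The sir2 row overlaps the end of zrt1, so its host reads may include reads of zrt1. With library size as offset, 2 sir2 introns without a call relative to host reads passed as higher. Their log2 changes were 1.26 and 0.955 (edgeR quasi-likelihood, BH-adjusted p = 0.00197 and 0.012). Relative to host reads, 3 of 5 sir2 introns rose. Of these calls 2 were lost without cwf10-ΔNTE replicate 1 (adjusted p = 0.0521 and 0.185) and the other without cwf10-ΔNTE replicate 2 (0.152).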

How the data were processed

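Poly-A RNA was sequenced from 2 cwf10-ΔNTE and 2 wild-type libraries, with first reads alone entering the counts, per the labels. The deposited table gives whole read counts for 7022 gene, 5361 intron and 8810 intergenic rows, made by assigning reads to genomic regions, per the file headers. The submitters' processing notes list CASAVA 1.8.2 and Bowtie 0.12.7. Which genome build and annotation the authors used is not given in the sources used here. The authors also deposited log2 fold changes and adjusted p-values from DESeq, log2 expression and splicing values, q-values of splicing efficiency, and the GC percent of introns, which were not used in any test. The library kit is stranded per the labels, yet the deposited counts are not.

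Gene counts were tested with edgeR 4.0.16 (R 4.3.3; TMM scaling, filterByExpr, quasi-likelihood F test, Benjamini-Hochberg adjustment over 6536 rows, threshold 0.05). Intron counts were tested likewise relative to host-gene reads, keeping introns of 10 or more reads in sum whose host gene had 50 or more. CPM use TMM library sizes; intergenic intervals were described only. Gene rows held 36186264 to 42802817 reads per library, and no comparison has more than 2 libraries per strain. Sequences come from RefSeq assembly ASM294v3, in which 98.7% of the deposited introns start with GT and end with AG. Of the gene rows 6844 matched a RefSeq identifier.

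Named rows are the 7 described, every gene row that overlaps 1 of them, the nearest row on each side, the listed genes, and the 3 rows closest in profile to adh4, zrt1 and adh1. Members and lists were chosen with earlier results of these data known. Alternatives were DESeq2 1.42.0, other scaling, other filters, non-overlapping rows, a replicate block and leaving out each library. On simulated counts with 100 changed rows per fold, the gene test recovered 96% of 1.5-fold and 100% of 2-fold changes, among 6530 tested rows. The intron test recovered 23% and 56%, among 5027 tested introns. Changed rows were drawn only above a floor of summed reads that was higher than the intron filter. Recovery in the lowest rows was therefore not measured. The simulation gave every row, introns included, the common coefficient of variation of the gene rows, 1.49%. Larger spreads, such as those between cultures grown apart, were not simulated.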

Additional observations from a re-analysis of the deposited data

How the results depend on the processing

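The log2 fold changes of the 7 zinc rows kept their sign in all 11 settings: adh4 3.17 to 3.26, zrt1 2.98 to 3.08, SPNCRNA.1622 2.48 to 2.61, loz1 0.26 to 0.41, zhf1 -0.29 to -0.19, zym1 -0.80 to -0.67 and adh1 -0.80 to -0.70. The authors' deposited DESeq values had the same signs but lay below these ranges. In the same order they were 3.04, 2.86, 2.39, 0.19, -0.41, -0.88 and -0.93. The 5104 gene calls became 1447 (740 higher, 707 lower) when only the 1885 tested rows without an overlap, plus the described rows, were fitted, since fewer rows were tested. Leaving out 1 library gave 4724 to 4797. Scaling by library totals alone put 63.4% of calls on the higher side (TMM, 50.6%) and shifted the median of all rows to log2 0.09 (TMM, 0.01). Intron calls, 2387, fell to 1126 with DESeq2 and ranged from 1380 to 2123 with 1 library left out; the cause was not tested.

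A replicate block gave 5127 gene calls and 2363 intron calls. Same-numbered libraries deviated with a correlation of 0.0249 over the tested gene rows, which cannot settle whether they were handled together. Among the named genes and introns with a call, none reversed its direction under the alternatives run. Some without a call changed sign, such as the fmd3 intron (log2 -0.56, and 0.31 with library size as offset). So did the pdc101 intron, listed with a length of 2 bases (0.08, and -0.11 without wild-type replicate 2). The hmt1 and pho8 introns stayed called in all 8 intron alternatives. Scaling by library totals brought 10 named rows past the threshold, cis4, zrg17, pdc201, atd1, pho8, gsa1, SPNCRNA.1208, snp27, scd2 and SPNCRNA.187. Among non-overlapping rows pdc201 (adjusted p = 0.0313) and SPNCRNA.187 (0.0469), a row beside zhf1 with 0.0551 over all tested rows, also passed. SPNCRNA.187 passed too with the replicate block (0.0388) and without wild-type replicate 1 (0.0183). The hsp104 call was also lost with DESeq2 (adjusted p = 0.332). With 2 libraries per strain, the spread is estimated mainly across genes, and low rows such as SPAC22H10.06c rest on few reads.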
